A study of Mus musculus with 6 samples.

Results

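The genes described here are the expressed members of the mouse Zfp family, zinc finger genes whose symbol is Zfp followed by a number, in group 2 innate lymphoid cells (ILC2s) of the neonatal lung. Of the 374 entries of this kind in the deposited files, 89 (23.8%) were selected because their level was 1 FPKM or more in 3 or more of the 6 libraries. FPKM counts sequenced fragments scaled by transcript length and by library size, so levels of genes of different length can be set side by side. Zfp36, a regulator of mRNA decay with another kind of zinc finger, was left out. The same threshold was met by 8718 of all 55394 genes (15.7%), and these are called the genes tested below. Because the members were chosen by their measured levels, those levels are a description.

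The study asked whether antibiotics given to the mother alter ILC2s of the offspring. Each library was made from 1000 ILC2s sorted from lungs of wild-type neonates as CD45+ Lin- CD90.2+ CD25+ cells. In the Abx group (n = 3) the pups were born to C57BL/6 dams that drank ampicillin, metronidazole, neomycin and vancomycin from gestation day 10 to 14, and in the Con group (n = 3) to control dams without antibiotics. The labels give neither the age of the pups in days nor their sex in each library, and no source used here says whether the 3 libraries of a group came from separate litters, so that p-values measure only the spread between these libraries.

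Most Zfp genes encode proteins with C2H2 zinc fingers, short loops in which a pair of cysteines and a pair of histidines hold a zinc ion. Arrays of such fingers read DNA, each finger contacting a few bases. A large share of the family also carries a KRAB box, which recruits the corepressor KAP1 (Trim28) and, through it, the histone methyltransferase Setdb1 and HP1 proteins (Cbx1, Cbx3 and Cbx5), and such proteins are best known for silencing transposable elements and protecting genomic imprints. Other members act in splicing, ribosome assembly or ubiquitin and SUMO transfer. KRAB genes lie in large clusters of tandem copies and are mostly transcribed at low levels.

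The fingers below, from GENCODE M21 transcripts in GRCm38 coordinates, show the unit that the family shares, each from an exon of a gene whose levels are described in detail later. The capitals mark the codons of the 2 cysteines and the 2 histidines, and the first 3 sequences run on into the linker that joins a finger to the next. They lie within coding sequence at chr9:20593335-20593412 (+), chr7:12493334-12493411 (+), chr17:21463854-21463931 (+) and chr3:9452269-9452340 (-).
Zfp846: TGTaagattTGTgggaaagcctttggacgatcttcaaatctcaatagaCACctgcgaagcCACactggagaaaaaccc
Zfp606: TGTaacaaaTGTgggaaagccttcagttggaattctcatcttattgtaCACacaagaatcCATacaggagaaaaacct
Zfp51: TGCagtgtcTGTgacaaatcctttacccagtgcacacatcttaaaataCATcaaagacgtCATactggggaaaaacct
Zfp704: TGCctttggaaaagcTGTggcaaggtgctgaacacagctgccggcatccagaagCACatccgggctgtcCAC
The finger of Zfp846 had the same base as that of Zfp606 at 54 of 78 positions (69.2%) and as that of Zfp51 at 49 of 78 (62.8%). The finger of Zfp704, a gene in which no KRAB box was found, has a longer spacer between its cysteines.

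Transcripts that define ILC2s were present. Of 12 ILC2 markers, 11 were at or above 1 FPKM in all 6 libraries, Gata3 between 33.9 and 97.48 FPKM among them, and the exception was Il1rl1, the IL-33 receptor, at 0.01 to 2.94 FPKM. The summed level of the 12 was 2200 to 2481 FPKM in Con and 1968 to 2470 in Abx, but single markers separated the groups. Icos spanned 240.5 to 288.65 FPKM in Con but 82.41 to 120.32 in Abx, Arg1 577.38 to 674.51 but 376.55 to 525.04, and Ptprc 18.6 to 22.9 but 25.41 to 45. Separation of single genes was common: every Abx library was above every Con library in 8.49% of the genes tested and below in 8.73%. The summed level of 6 B cell markers ranged from 255 to 294 FPKM in Con and from 539 to 596 in Abx, and that of 7 T cell markers from 121 to 141 and from 244 to 273, without overlap (exact permutation p = 0.1 each, n = 3 per group). The B cell sum was carried by Ighm, at 109.49 to 159.26 FPKM in Con and 357.66 to 428.74 in Abx, while Cd79b went the other way, from 69.46 to 116.78 in Con and from 31.01 to 57.43 in Abx. The T cell sum was mostly Cd3g, at 93.25 to 124.29 FPKM in Con and 140.09 to 196.48 in Abx. Cd3d also separated the groups, at 4.46 to 8.32 FPKM in Con and 37.15 to 107.99 in Abx. The groups overlapped in Cd3e, Trac, Cd4, Cd8a and Cd5, with Trac at 0.22 FPKM in the third Abx library. Of these lists, 4 B cell and 3 T cell markers were at 1 FPKM or more in every library, and Pax5 and Cd4 were each at 0 in at least 1. The summed lists of myeloid, neutrophil, epithelial, endothelial, fibroblast and erythroid markers overlapped between the groups, with the erythroid one between 1312 and 6292 FPKM. The highest epithelial sum, 1150.46 FPKM in a Con library, was mostly Scgb1a1, at 1109.16 FPKM. Scgb1a1 was not most of the sum in every library, with values down to 0.74 FPKM in Con and from 1.76 to 65.33 in Abx. The surfactant gene Sftpc separated the groups, at 11.26 to 36.82 FPKM in Con and 48.31 to 56.09 in Abx. Xist, expressed from the inactive X chromosome of females, reached 3.78, 4.38 and 5.09 FPKM in Con but was listed at 0 in all 3 Abx libraries, and the Y-linked gene Eif2s3y had Con values of 0.03, 0.58 and 0.86 FPKM and Abx values of 22.82, 11.85 and 24.37. Sex-linked expression and maternal antibiotics therefore cannot be told apart in any comparison below, and the part of the transcripts of other cell types was not tested. In bulk RNA, fewer cells of a type and less RNA per cell cannot be told apart either. Libraries also differed in how many genes they detected at 1 FPKM, 8574 to 9203 in Con and 7074 to 8193 in Abx. Polr2h, a subunit of RNA polymerases that every cell uses, was listed at 0 in the third Abx library, so a 0 may be a failed estimate.

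At thresholds of 0.1 and 1 FPKM each Abx library held fewer Zfp entries than any Con library, but not at 5 FPKM or above 0. At 1 FPKM or more, 94, 96 and 105 of the 374 entries were present in Con, as were 65, 84 and 89 of them in Abx. Every Abx library was below every Con library, with means of 98.3 ± 5.86 and 79.3 ± 12.7 (SD, n = 3 each). The difference of 19 entries had p = 0.1 in an exact two-sided permutation test, the smallest p that 3 libraries against 3 allow. The first Abx library was the lowest, and without it the mean difference was 11.8 entries. At a threshold of 0.1 FPKM the counts were 117, 115 and 136 in Con and 86, 102 and 98 in Abx, again without overlap (exact permutation p = 0.1, n = 3 each). At 5 FPKM the order of the means turned, with 38, 50 and 35 entries in Con and 45, 45 and 59 in Abx, and the groups overlapped (exact permutation p = 0.3, n = 3 each). Entries with any value above 0 numbered 159, 185 and 177 in Con, against 215, 158 and 164 in Abx, with the first Abx library the highest of all (exact permutation p = 0.9, n = 3 each).

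**Figure D1:**
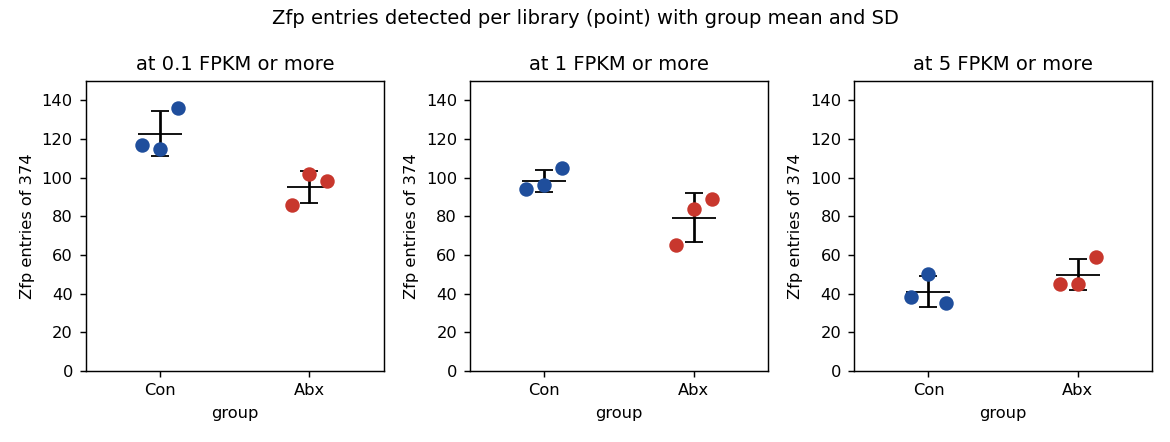
Number of Zfp entries of 374 (vertical axis) at or above 0.1, 1 and 5 FPKM in each library (points), with the group mean (bar) and SD (whiskers), n = 3 per group. At 0.1 and 1 FPKM all 3 Abx libraries lie below all 3 Con libraries, while at 5 FPKM the groups overlap.

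Genes of all kinds were also fewer at 1 FPKM in Abx, with a mean difference of -1263 (exact permutation p = 0.1, n = 3 each). Zfp entries made up 1.06%, 1.12% and 1.14% of all genes at 1 FPKM or more in Con and 0.919%, 1.03% and 1.18% in Abx. The ranges overlapped (exact permutation p = 0.5, n = 3 each). The summed level of the family came to 752, 883 and 731 FPKM in Con, against 775, 699 and 959 in Abx (exact permutation p = 0.8, n = 3 each). The family thus held 0.143% to 0.222% of the total FPKM of a library. The 89 expressed genes carried 76.7% to 88.4% of the summed level of the family.

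The 285 entries below the threshold included 38 that reached 1 FPKM in 2 libraries, 62 that did so in 1 library and 185 that never did, 84 of which were listed at 0 in all 6. Just inside the threshold were Zfp771, with 1.03, 1.2 and 0.6 FPKM as its Con values and 0.14, 4.13 and 0 as its Abx values, and Zfp408, with 0.02, 0 and 1.05 FPKM as its Con values and 5.36, 2.65 and 0 as its Abx values. Just outside were Zfp276, with 0, 1.42 and 2.31 FPKM as its Con values and 0.06, 0.01 and 0.94 as its Abx values, and Zfp281, with 0.94, 0.06 and 1.65 FPKM as its Con values and 0.23, 0.01 and 9.16 as its Abx values. A low rank did not mean a low value everywhere. Zfp263 stayed outside at 25.22 FPKM in the first Abx library and at most 2.22 in the others, and Zfp143, a transcriptional activator that binds many promoters, at 10.19 FPKM in that library and at most 0.1 elsewhere. Both were on a list of 34 Zfp genes with a described role, of which 18 were expressed.

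Most of the 89 expressed genes dropped out of at least 1 library. Only 21 (23.6%) were at or above 1 FPKM in all 6 libraries, against 48.8% of the genes tested, and 23, 25 and 20 genes were so in 3, 4 and 5 libraries. The median of the mean level was 3.99 FPKM for the 89 and 9.36 for the genes tested. At like mean levels the shares in all 6 libraries were closer. They were 0% against 2.73% under 2 FPKM and 10.5% against 15.4% from 2 to 5. From 5 to 20 FPKM they were 36.4% against 46.4%, and at 20 or more 100% against 90.2%. In each Con library 70, 72 and 75 of the 89 reached 1 FPKM, and in each Abx library 51, 65 and 62. Values under 0.1 FPKM were found for 13, 13 and 8 genes in Con and for 29, 23 and 25 in Abx. Of all values of the expressed Zfp genes, 12.7% were under 0.1 FPKM in Con and 28.8% in Abx, and for the genes tested the shares were 6.53% and 14.4%. The median level of the 89 genes overlapped between the groups, at 3.55, 4.26 and 3.28 FPKM in the Con libraries against 2.95, 3.74 and 4.32 in Abx.

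**Figure D2:**
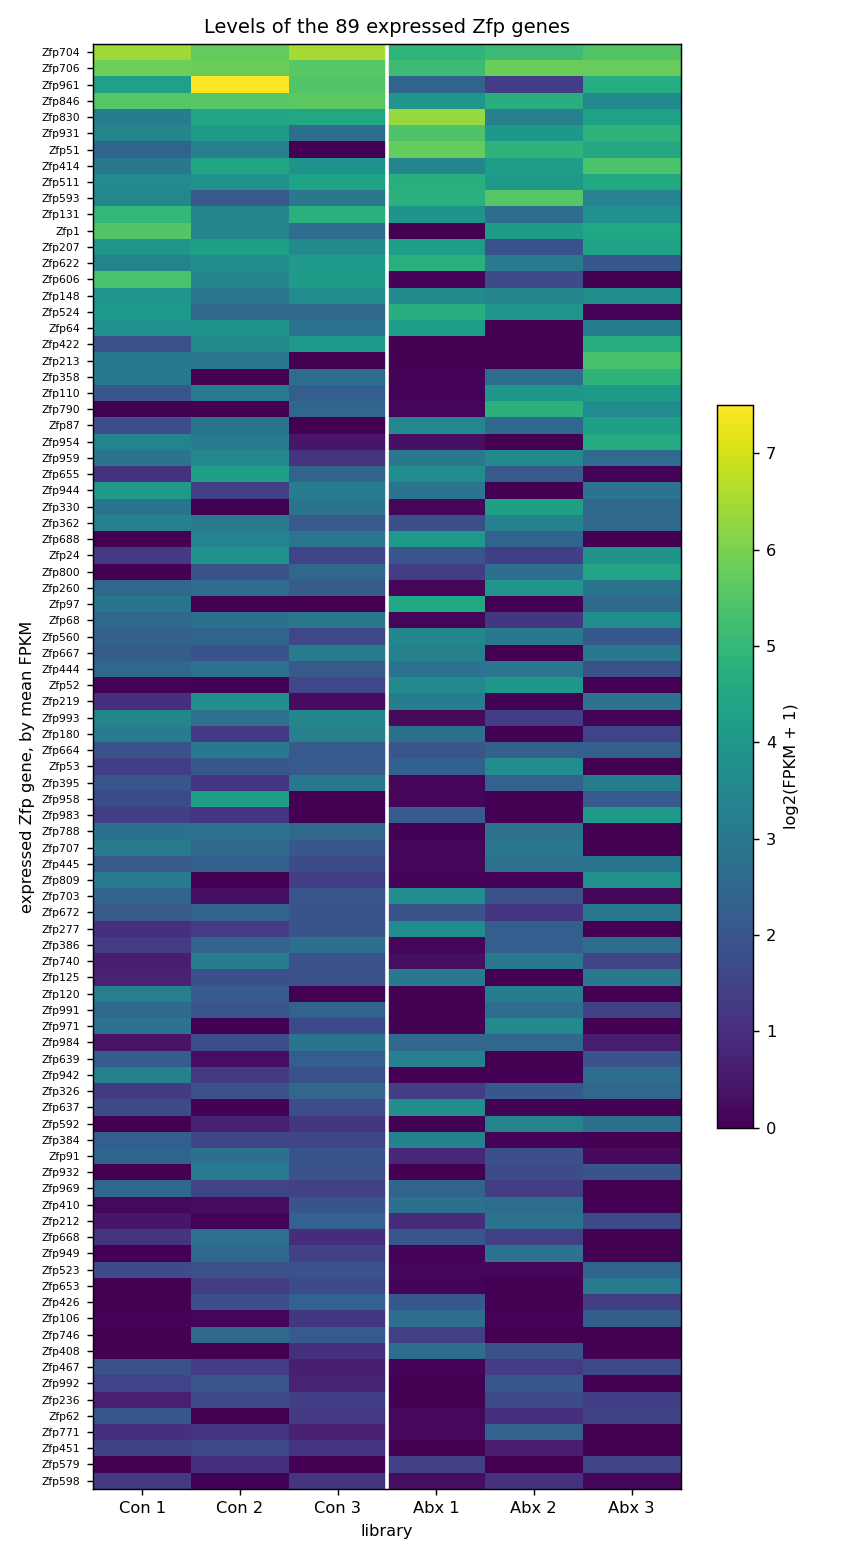
Levels of the 89 expressed Zfp genes (rows, ordered by mean FPKM) in the 6 libraries (columns), as log2(FPKM + 1) on a colour scale that starts at 0. Rows near the top are filled in nearly all libraries, while 65 of the 89 genes have at least 1 value under 0.1 FPKM.

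Only 1 gene, Zfp451, passed the threshold through the Con libraries alone and none through the Abx libraries alone. The other 88 genes reached 1 FPKM in at least 1 library of each group. By contrast, high and near-zero values often met in 1 gene: 30 of the 89 (33.7%) were at 10 FPKM or more in a library and under 0.1 in another, as were 20.2% of the genes tested. Zfp213 was one of these, with 7.22, 6.68 and 0 FPKM as its Con values and 0, 0 and 40 as its Abx values. Zfp790 was another, with 0, 0 and 4.68 FPKM as its Con values and 0.09, 27.46 and 11.31 as its Abx values. In both genes the libraries of a group differed among themselves as widely as the groups did. These examples were picked after their values were seen.

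Split by mean level, the near-zero values thinned out upwards. The 13 expressed Zfp genes with a mean under 2 FPKM had 34.6% of their values under 0.1 FPKM, the 38 genes from 2 to 5 FPKM had 22.8%, the 33 genes from 5 to 20 FPKM had 16.2% and the 5 genes at 20 FPKM or more had none. Among the genes tested the shares at these levels were 22.0%, 20.1%, 9.55% and 1.03%. In the Abx libraries the share of near-zero values was higher than in Con at each of the 3 lower levels, for the Zfp genes (41.0% against 28.2%, 35.1% against 10.5% and 21.2% against 11.1%) and for the genes tested (30.6% against 13.3%, 27.3% against 12.9% and 13.3% against 5.81%). From 5 to 20 FPKM, 20 of the 33 Zfp genes (60.6%) were at 10 FPKM or more in a library and under 0.1 in another, and 37.8% of the genes tested at that level. Of the 38 Zfp genes with a mean of 5 FPKM or more, 3, 4 and 4 were under 0.1 FPKM in Con, against 10, 7 and 4 in Abx. In these few genes the last Abx library was level with Con, but not in the genes tested. Of the genes tested with such a mean, 3.16%, 4.75% and 2.45% were under 0.1 FPKM in Con. In Abx 7.77%, 6.66% and 9.16% were, with the last library the highest.

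**Figure D3:**
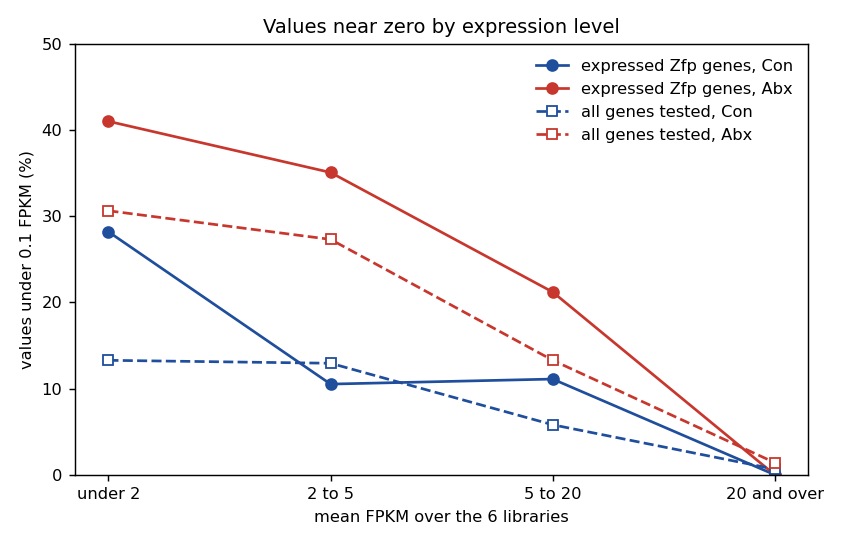
Share of values under 0.1 FPKM (percent, vertical axis) in 4 bins of mean FPKM over the 6 libraries, for the expressed Zfp genes (filled circles) and all genes tested (open squares) in Con and Abx. The Abx lines lie above the Con lines in the 3 lower bins, and 5 Zfp genes at 20 FPKM or more had no value under 0.1.

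The spread between libraries of a group did not fall steadily with level but rose up to the bin of 5 to 20 FPKM and was lowest above it. The median within-group SD of log2(FPKM + 1) was 0.94 for the Zfp genes under 2 FPKM, 1.31 from 2 to 5, 1.38 from 5 to 20 and 0.41 at 20 or more, beside 0.72, 1.13, 1.17 and 0.51 for the genes tested. A doubling is a difference of 1 on this scale, which understates the change of low genes, so in the 2 middle bins a doubling was smaller than the typical SD between libraries.

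No expressed Zfp gene differed between the groups at a fold over 2 with an adjusted p under 0.05 (limma, Benjamini-Hochberg over 8718 genes), where 0.0574% of the genes tested did. The lowest adjusted p among them was 0.128, for Zfp606. At an unadjusted p under 0.05, 1 was higher in Abx and 6 were lower, beside 4.74% of the genes tested that were higher and 6.25% that were lower. In 1 gene every Abx library was above every Con library (8.49% of the genes tested) and in 6 every Abx library was below (8.73%). The counts of 6 in 89 (6.74%) were near these backgrounds and those of 1 in 89 (1.12%) were below theirs. Without Abx library 1, 2 or 3 in turn, 3, 4 and 5 genes were higher at an unadjusted p under 0.05 (5.26%, 5.37% and 5.62% of the genes tested in the same fits) and 4, 9 and 9 were lower (7.38%, 9.30% and 8.69%). Without the second Con library 3 were higher (3.56%) and 5 lower (4.98%). No call was made in any of these fits. Zfp606, Zfp993, Zfp846 and Zfp51 stayed at an unadjusted p under 0.05 whichever library was left out. Zfp704, Zfp961 and Zfp451 did not, with p up to 0.077, 0.103 and 0.070. Zfp451 was also past 0.05 after quantile normalization, where its difference was -0.62, and Zfp51 with a pseudocount of 0.01, where its difference was 5.48.

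The fitted differences of the 89 genes, Abx minus Con on the log2(FPKM + 1) scale, had a median of -0.18 and an interquartile range from -0.72 to 0.52, and 37 were above 0 and 52 below. The genes tested had a median of -0.06 and an interquartile range from -0.74 to 0.49. By level, the median was -0.23 under 2 FPKM, -0.18 from 2 to 5, 0.06 from 5 to 20 and -1.03 for the 5 genes at 20 or more, beside -0.19, -0.17, -0.13 and 0.07 for the genes tested. The median of the 89 turned to 0.21 after quantile normalization and was -0.88 with a pseudocount of 0.01, so its size and direction depended on the scaling. Without the first Abx library it was 0.0053.

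**Figure D4:**
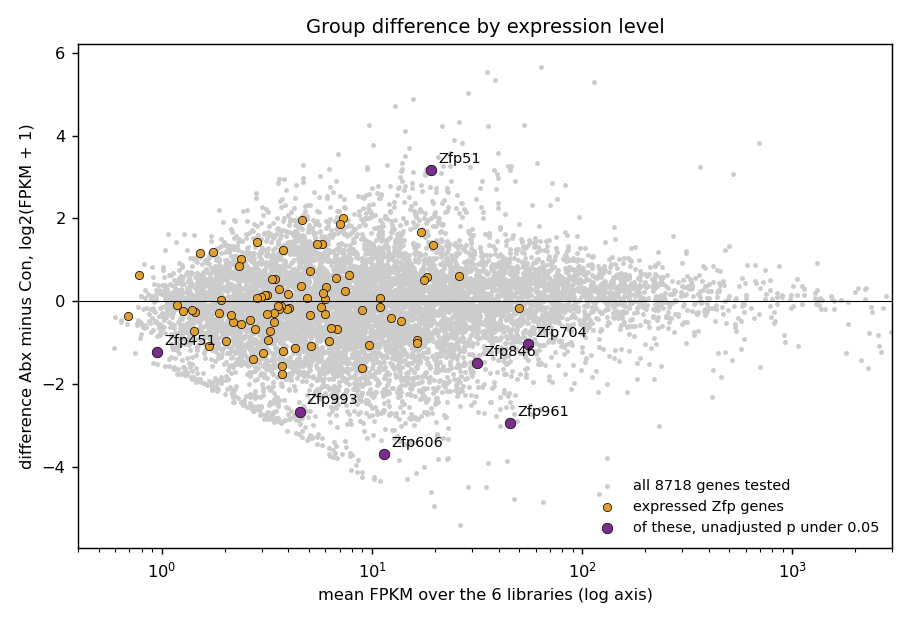
Difference between groups (Abx minus Con, log2(FPKM + 1), vertical axis) against mean FPKM over the 6 libraries (log axis) for all 8718 genes tested (grey), the expressed Zfp genes (orange) and the 7 of them at an unadjusted p under 0.05 (purple, named). The differences of the Zfp genes run from -3.69 to 3.16 and those of all genes tested from -5.40 to 5.66, and of the 7 named only Zfp51 lies above 0.

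Among the 6 expressed Zfp genes with the highest means, 3 were lower in Abx at an unadjusted p under 0.05 and 3 were not. At a mean of 20 FPKM or more, 3 of 5 Zfp genes were lower at this p (limma) and 0 higher. Among the 2703 genes tested at that level, 175 were lower and 263 higher. These 3 Zfp genes are part of the 6 lower of 89, a count near its background. Zfp704 measured 83.67, 50.43 and 90.83 FPKM across Con, then 28.76, 33.94 and 44.41 across Abx. Its Con libraries were all higher, with a difference of -1.03 ± 0.35 (SE; limma unadjusted p = 0.0195, adjusted p = 0.286). The gene lies at chr3:9427020-9610085 (-), and 16.5% of the 50-base words of its transcripts also occur in those of other genes. Zfp846, a KRAB gene with 14 fingers at chr9:20581291-20605409 (+), lay at 44.78, 45.95 and 48.29 FPKM for the Con libraries, 14.13, 25.56 and 11.15 for the Abx libraries. The 3 Con libraries were close to each other and all above Abx, with a difference of -1.48 ± 0.41 (SE; limma adjusted p = 0.182). Zfp961, a KRAB gene with 11 fingers at chr8:71951038-71993792 (+), had Con values of 18.39, 179.99 and 43.44 FPKM and Abx values of 4.38, 1.59 and 24.03. The groups overlapped and the second Con library alone held the highest Zfp value of all libraries, with a difference of -2.93 ± 1.05 (SE; limma adjusted p = 0.324).

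The other 3 of these genes had no p under 0.05. Zfp706, a small protein with a single finger that has been tied to the exit of stem cells from self-renewal, measured 56.59, 55.05 and 45.94 FPKM across Con, then 34.34, 55.31 and 53.22 across Abx. Its groups overlapped and the sign of its difference turned without the first Abx library. Zfp830, a splicing factor, lay at 8.14, 20.09 and 21.24 FPKM for the Con libraries, 79.75, 8.53 and 18.46 for the Abx libraries, where the first Abx library alone was high and the sign turned without it. Zfp931, a KRAB gene, had Con values of 9.63, 15.94 and 5.49 FPKM and Abx values of 42.33, 14.83 and 28.4, with a difference of 1.37 ± 0.59 (SE; limma adjusted p = 0.455).

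Zfp51 was the single expressed Zfp gene with all Abx libraries above all Con libraries. This KRAB gene with 19 fingers at chr17:21450374-21465587 (+) measured 4.33, 8.35 and 0 FPKM across Con, then 51.46, 28.16 and 22.21 across Abx. The difference was 3.16 ± 0.91 (SE; limma unadjusted p = 0.0090, adjusted p = 0.196). Its neighbours in the same cluster did not show the same order of libraries. Zfp52 lay at 0.05, 0 and 2.09 FPKM for the Con libraries, 10.81, 14.91 and 0 for the Abx libraries, and Zfp53 had 1.56, 3.12 and 3.33 FPKM as its Con values and 4.05, 11.87 and 0 as its Abx values. In both the third Abx library was listed at 0 and the groups overlapped. Zfp52 was among the 6 lowest p of the genes with a positive difference, at 1.95 with an adjusted p of 0.607 (limma), as was Zfp408, at 1.16 with an adjusted p of 0.648 (limma).

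After Zfp51 and Zfp931, the lowest p among the genes with a higher mean in Abx were those of Zfp593 and Zfp87. Zfp593, a factor in the assembly of the large ribosomal subunit, had Con values of 10.3, 3.28 and 7.06 FPKM and Abx values of 26.58, 45.89 and 8.97 (1.68, limma adjusted p = 0.456), and 66.9% of the 50-base words of its transcripts also occur in transcripts of other genes, so its level is uncertain. Zfp87 measured 2.42, 6.42 and 0 FPKM across Con, then 10.36, 4.74 and 18.23 across Abx (1.88, limma adjusted p = 0.543). The groups overlapped in both.

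Among the lower genes, Zfp606 had the lowest p. This KRAB gene with 13 fingers at chr7:12478293-12496235 (+) lay at 40.38, 9.63 and 16.27 FPKM for the Con libraries, 0.06, 2.35 and 0 for the Abx libraries. All Con libraries were above all Abx libraries, with a difference of -3.69 ± 0.87 (SE; limma unadjusted p = 0.0033, adjusted p = 0.128), and none of its 50-base words occurs in another gene. Zfp993 had Con values of 9.61, 6.08 and 9.62 FPKM and Abx values of 0.14, 1.62 and 0.06, also without overlap (-2.66 ± 0.69 SE, limma adjusted p = 0.157). It lies in a cluster at chr4:145510759-147848366, and 86.8% of its 50-base words occur in other genes, most often in Zfp991. Zfp991 itself measured 4.86, 3 and 4.24 FPKM across Con, then 0, 5.39 and 1.78 across Abx, so the levels of this pair are uncertain.

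**Figure D5:**
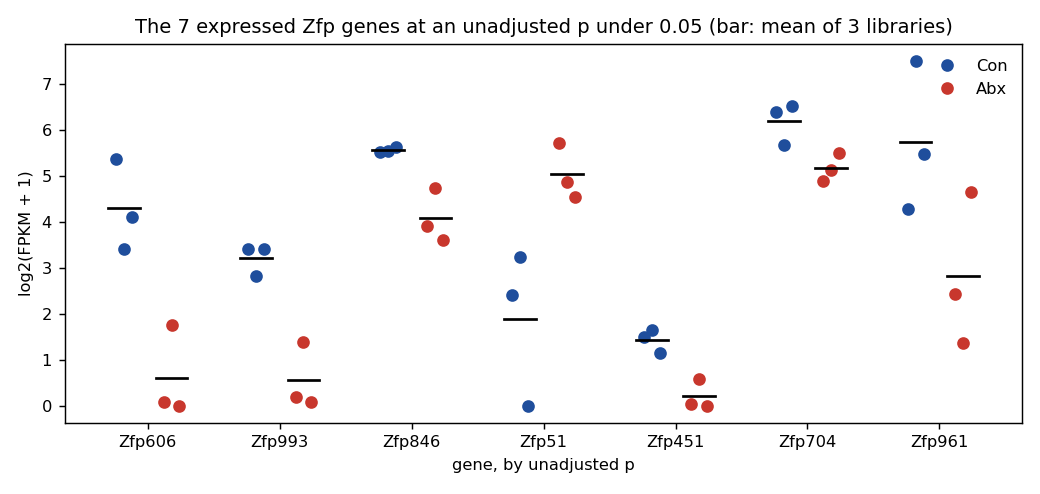
Levels of the 7 expressed Zfp genes at an unadjusted p under 0.05, as log2(FPKM + 1), in each Con and Abx library (points) with the mean of 3 libraries (bar), ordered by p. The groups do not overlap in Zfp606, Zfp993, Zfp846, Zfp51, Zfp451 and Zfp704 and overlap in Zfp961.

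Members with enzymatic roles were low. Zfp451, a SUMO ligase, lay at 1.81, 2.12 and 1.22 FPKM for the Con libraries, 0.02, 0.5 and 0 for the Abx libraries, with a difference of -1.22 ± 0.40 (SE; limma unadjusted p = 0.0170, adjusted p = 0.267). Since it passed the threshold through Con alone, a difference in this direction was built into its selection. Zfp91, a ubiquitin ligase that acts on the noncanonical NF-kB pathway, had Con values of 4.32, 5.61 and 2.85 FPKM and Abx values of 0.83, 2.55 and 0.14. The groups did not overlap, but its unadjusted p was 0.076 (limma adjusted p = 0.519). Zfp598, a ubiquitin ligase that marks stalled ribosomes, measured 1.44, 0.03 and 1.25 FPKM across Con, then 0.21, 1.12 and 0.08 across Abx, with overlap.

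Zfp326, Zfp207 and Zfp622, all with a listed role, were at 1 FPKM or more in every library. Zfp326, a factor that links transcription to splicing, lay at 1.41, 2.64 and 4.52 FPKM for the Con libraries, 1.56, 3.15 and 4.56 for the Abx libraries, nearly the same range in both groups. Zfp207, which acts at kinetochores, had Con values of 14.8, 17.96 and 11.05 FPKM and Abx values of 16.93, 2.74 and 19.1, with the second Abx library the lowest. Zfp622, which acts in maturation of the large ribosomal subunit, measured 9.4, 11.8 and 15.7 FPKM across Con, then 26, 7.75 and 3.16 across Abx. The groups overlapped in all 3 genes.

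Of the transcriptional regulators with a listed role, Zfp148 lay at 14.03, 6.62 and 11.63 FPKM for the Con libraries, 11.05, 9.56 and 12.25 for the Abx libraries, and Zfp131 had 30.48, 9.83 and 26.16 FPKM as its Con values and 13.84, 5.39 and 12.87 as its Abx values. Both were detected throughout, with adjusted p of 0.979 and 0.666 (limma). Zfp445, which maintains genomic imprints, had Con values of 3.27, 3.99 and 2.27 FPKM and Abx values of 0.09, 5.97 and 6.47. Its usual partner in that role, Zfp57, was no member, at 0.9 FPKM in the second Abx library and at most 0.03 in the others. Zfp809, which silences retroviruses that use the proline primer site, measured 7.34, 0 and 1.63 FPKM across Con, then 0.06, 0.05 and 12.6 across Abx. Zfp410, an activator of the remodeller gene Chd4, lay at 0.11, 0.18 and 2.84 FPKM for the Con libraries, 5.81, 5.29 and 0.01 for the Abx libraries, and Zfp592 had 0.01, 0.57 and 1.34 FPKM as its Con values and 0.04, 9.17 and 5.79 as its Abx values. In each of these 4 members the Abx libraries held a value under 0.1 FPKM and another above 5. The remaining members with a listed role, Zfp219, Zfp395, Zfp384 and Zfp106, had adjusted p of 0.937, 0.970, 0.854 and 0.651 (limma), and their groups overlapped.

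The fixed residues of a KRAB box, searched as 9 residues of the A box with up to 3 mismatches, were found in 204 of 364 protein-coding entries of the family and in 0.539% of coding genes outside it. Of the 204, 40 (19.6%) were among the 89, as were 48 of 160 coding entries without a match. A missing match does not show that the box is absent, so the entries without a match can include KRAB genes. Members had 0 to 30 fingers with a median of 8, and entries below the threshold had a median of 11. The KRAB members had a median of 11 fingers and the others 5. These shares describe the selection and were not tested.

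Near-zero values were frequent in the KRAB members. Of their values, 15.8% in Con and 34.2% in Abx were under 0.1 FPKM, against 10.4% and 24.3% in the 48 coding members without a match, though the median of the mean level was similar (4.26 and 3.98 FPKM). The median difference was -0.39 in the 40 KRAB members, with 14 above 0 and 26 below, and -0.13 in the others, with 22 above 0 and 26 below. Of the 7 genes at an unadjusted p under 0.05 (limma), 5 had a match to the KRAB box. These were 1 higher and 4 lower of the 40 KRAB members, and the 48 others had 0 higher and 2 lower. Among the genes tested, 4.74% were higher and 6.25% lower at this p. Only 5 of the 40 KRAB members (12.5%) were at 1 FPKM or more in all 6 libraries, and 16 of the 48 others (33.3%).

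More than 10% of the 50-base words was shared in a minority of the members, 20 of the 89. The median share of 50-base words found in transcripts of other genes was 1.42%, and 23 of the 89 had none. More than 50% was shared in 8 members, up to 100% in Zfp969, whose words occur in other genes, most often in Zfp968. Over the 81 members that shared at most 50%, the median difference was -0.16, 34 genes were above 0 and 47 below, and of those at an unadjusted p under 0.05, 1 was higher and 5 were lower.

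Much of the family lies in clusters. With entries joined across gaps of up to 500000 bases, 17 clusters of at least 5 entries held 174 entries, 34 of them expressed (19.5%), and outside clusters 55 of 200 were (27.5%). The cluster at chr13:66669928-67827002 had 1 expressed gene of 20, Zfp87. The cluster at chr17:21008903-23599487 had 7 of 23, Zfp51, Zfp52 and Zfp53 among them, with 4 differences above 0 and 3 below. The cluster at chr4:145510759-147848366 had 4 of 18, with 1 above 0 and 3 below. Chromosome 7 held the most entries, 91, of which 16 were expressed, and on the X chromosome none of 7 entries was.

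The corepressors through which KRAB proteins act were described alongside, as a list of 25 genes of which 24 were matched by symbol and 20 met the threshold. None was called (limma). Of the 20, 1 was higher in Abx at an unadjusted p under 0.05 and none lower, beside 4.74% and 6.25% of the genes tested. The median difference was 0.08, with 11 above 0 and 9 below. Trim28 had Con values of 16.61, 24.27 and 16.78 FPKM and Abx values of 36.35, 23.2 and 44.05 (0.79, limma adjusted p = 0.550), with overlap. The gene with the low p was Cbx1, an HP1 protein that binds methylated histone H3, with 8.49, 2.45 and 4.61 FPKM as its Con values and 16.36, 17.16 and 15.16 as its Abx values. All its Abx libraries were higher, as in 8.49% of the genes tested, with a difference of 1.60 and an adjusted p of 0.386 (limma). Setdb1 was at most 0.11 FPKM in every library, under the threshold.

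Zbtb genes, which join C2H2 fingers to a BTB domain and include known regulators of lymphocyte fate, gave the same measures on fewer genes. Of 36 entries 11 were expressed, none was called, the unadjusted p was under 0.05 in 1 gene that was higher and 3 that were lower (9.09% and 27.3% of the 11, beside 4.74% and 6.25% of the genes tested), and the median difference was -0.60. Of their values, 6.06% in Con and 36.4% in Abx were under 0.1 FPKM. No test between the 2 families was made.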

How the data were processed

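RNA of 1000 sorted cells per library was amplified with the Smart-seq v4 kit. The deposited values are FPKM per gene, which the authors made with Cutadapt, HISAT2 and StringTie. Their methods name a human Ensembl annotation, while the genes carry mouse identifiers, and the submitters' processing notes list Bowtie 0.12.2 with builds mm8 and mm9, so the build behind the values is uncertain. Of the 374 Zfp identifiers, 373 are in GENCODE M21 (GRCm38), from which positions, coding sequences, fingers, KRAB boxes and shared 50-base words were taken. Fingers were counted as C, 2 to 4 residues, C, 12 residues, H, 3 to 5 residues, H. In each library 23.5% to 27.0% of low values lay near whole multiples of the best of many candidate steps. Chance gives 20% for a single fixed step, and the chance share for the best step was not computed. Read counts were therefore not derived and depth is unknown. No counting error is given, and the count test of the authors was not repeated.

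Genes at 1 FPKM or more in 3 of 6 libraries were fitted with limma 3.58.1 in R 4.3.3 (lmFit, eBayes with trend) on log2(FPKM + 1), and two-sided p-values were adjusted by Benjamini-Hochberg over all 8718. A call was a fold over 2 and an adjusted p under 0.05. Counts and sums per library were compared by exact two-sided permutation tests. Replicates carry numbers 1 to 3 in both groups, but no source names a pairing, and same-numbered libraries did not deviate together (correlations -0.03, -0.02 and 0.01 over genes), so no block was used. The fit was tested only on simulated data with large planted differences and normal noise. Small differences and the near-zero values seen here were not simulated. Tables were made in Python 3.11.15 (pandas 2.3.3, numpy 2.4.6, matplotlib 3.10.9).

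The genes named were the 6 members with the highest means, the 6 with the lowest p in each direction, those next to the threshold, members with a role on a list of 34, and members carried by 1 group alone. Others are named as neighbours, sharing partners or examples. The members and lists were chosen with earlier results of these data known. Alternatives were pseudocounts of 0.1 and 0.01, quantile normalization, median centring, no filter, a mean of at least 5 FPKM, other detection thresholds, equal totals, names checked against the annotation, the replicate block and each library left out.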

Additional observations from a re-analysis of the deposited data

How the results depend on the processing

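No expressed Zfp gene and no corepressor gene was called under any alternative run. The count of genes higher in Abx at an unadjusted p under 0.05 was 3 with no filter on low values, over the 290 entries then tested (2.99% of all features in that fit), 2 after quantile normalization (5.40%) and 1 to 5 with a library left out (3.53% to 5.62%). The median difference was -0.88 with a pseudocount of 0.01, -0.63 with 0.1 and 0.21 after quantile normalization, where the median of all genes tested was -0.17, -0.15 and 0.03. The difference in entries detected turned to 8.67 at 5 FPKM, and with a library left out it ranged from -23.8 to -11.8. The difference in summed FPKM, 22.1, turned to -17.4 with equal totals and ranged from -52.0 to 78.1 with a library left out (-6.60 without the third Con library, -52.0 without the third Abx library). The causes were not tested. With the replicate block, 0 genes were called, 1 was higher and 6 were lower, with a median of -0.18, and the block changed no other call. Of 178 values of 14 named genes under 13 alternatives, 176 kept their sign, and none was called in any. Under at least 1 alternative the unadjusted p moved past 0.05 for Zfp704, Zfp961, Zfp451 and Zfp51 and under 0.05 for Zfp931, Zfp593, Zfp87, Zfp52 and Zfp408. Exceptions in sign were Zfp706, from -0.28 to 0.052 with a library left out, and Zfp830, from -0.25 to 1.29, both turned without the first Abx library. Depth is unknown, so the precision of low values could not be stated.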
